A study of Homo sapiens with 2 samples.

Results

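The 10 genes described here were picked by name from the 37122 rows of the RNA-seq count table: 9 receptors that place B cells in lymphoid tissue (CXCR4, CXCR5, CCR6, CCR7, CXCR3, S1PR1, S1PR2, GPR183 and P2RY8) and GNA13, a G protein alpha subunit that acts below S1PR2 and P2RY8. All 10 have a row, and 8 had at least 10 reads in the 2 libraries together. The study compared Ramos cells, a human Burkitt's lymphoma (BL) line of B-cell origin, with Ramos640 cells, a line derived from Ramos that resists complement-dependent cytotoxicity (CDC) mediated by rituximab, an antibody to CD20. Both lines were kept in medium that held fetal bovine serum (10%), penicillin and streptomycin. Ramos640 cells also received rituximab, at 640 mg/mL by the sample labels and at the same number of micrograms by the paper, with 20% normal human serum (NHS) every 21 days. RNA of 3 passages was pooled for each line before sequencing, so there was 1 library per line, no difference below has a replicate check, and line, culture history and library cannot be told apart.

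Sequencing gave 38030090 reads for Ramos and 30871826 for Ramos640, and a count of 0 allows up to 3 reads, or 0.0789 and 0.0972 CPM (counts per 1000000 reads). All 9 B-cell and BL markers examined had at least 1904 reads in both libraries, and that lowest count was of MS4A1, which encodes CD20, in Ramos640 (9654 in Ramos). They were present but not all level: MME had 12005 and 4880 reads, PAX5 4624 and 2039, and CD79B, the most read, 69495 and 82890. EPCAM (0 and 1 reads) and LYZ (0 and 1 reads), which mark epithelial cells and monocytes, were at or near 0, while the most read of their lists were KRT18 (19 and 11 reads), KRT8 (18 and 3) and S100A8 (13 and 4). Of 8 T-cell markers, CD2, CD3D and CD5 had no reads in either library, while TRAC had 1555 and 583. CD28 had 43 and 14 reads, CD247 25 and 58, CD3E 1 and 31, and CD3G 5 and 1.

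Follicle entry, germinal centre layout and exit from lymphoid tissue are set by which of these receptors a B cell carries. CXCR5 draws B cells to CXCL13 in the follicle, CXCR4 holds germinal centre cells in the CXCL12-rich dark zone, CCR7 leads to the T-cell zone, and S1PR1 leads out toward lymph and blood. S1PR2 and P2RY8 do the opposite of an attractant receptor: through GNA13 and RHOA they restrain migration and keep germinal centre cells clustered, and genes of this arm are recurrently mutated in BL and related lymphomas. GPR183, the oxysterol receptor also called EBI2, is kept low in germinal centre B cells.

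The promoters of 9 of the 10 genes were listed in RefSeq (GRCh38.p14, in windows that lie mostly before a start). Those of CXCR4 and GNA13, with the most reads, and of S1PR1 and GPR183, with few or none, are shown as examples. The capitals mark the letters GGGCGG (GC box) and TATAAA (the letters of a TATA box), on either strand and with overlaps kept.
CXCR4, chr2:136118100-136118399, minus strand: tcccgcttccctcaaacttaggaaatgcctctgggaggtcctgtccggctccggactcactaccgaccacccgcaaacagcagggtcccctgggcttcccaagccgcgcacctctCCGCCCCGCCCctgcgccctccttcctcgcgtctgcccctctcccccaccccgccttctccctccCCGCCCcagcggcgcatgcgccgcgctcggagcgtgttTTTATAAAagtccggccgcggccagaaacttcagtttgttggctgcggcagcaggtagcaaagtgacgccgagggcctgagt
GNA13, chr17:65056691-65056990, minus strand: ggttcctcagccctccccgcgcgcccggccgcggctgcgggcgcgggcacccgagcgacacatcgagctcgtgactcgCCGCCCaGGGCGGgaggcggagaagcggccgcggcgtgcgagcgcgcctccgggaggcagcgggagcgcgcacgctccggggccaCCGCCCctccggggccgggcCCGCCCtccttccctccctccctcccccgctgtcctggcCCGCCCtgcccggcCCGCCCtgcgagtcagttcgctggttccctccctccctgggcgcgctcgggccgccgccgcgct
S1PR1, chr1:101236769-101237068, plus strand: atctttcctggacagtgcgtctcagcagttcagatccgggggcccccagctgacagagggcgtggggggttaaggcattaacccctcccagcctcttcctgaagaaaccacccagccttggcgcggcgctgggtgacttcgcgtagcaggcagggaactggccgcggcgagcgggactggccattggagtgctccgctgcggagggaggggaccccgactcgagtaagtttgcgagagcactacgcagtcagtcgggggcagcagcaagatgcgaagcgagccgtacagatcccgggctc
GPR183, chr13:99307350-99307649, minus strand: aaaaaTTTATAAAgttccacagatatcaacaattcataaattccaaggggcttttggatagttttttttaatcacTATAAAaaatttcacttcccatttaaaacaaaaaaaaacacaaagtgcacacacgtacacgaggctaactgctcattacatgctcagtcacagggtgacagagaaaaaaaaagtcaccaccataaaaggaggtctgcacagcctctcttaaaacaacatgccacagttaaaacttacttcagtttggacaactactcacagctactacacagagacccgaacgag
CCR7 is the gene without an entry. The GC box was present at the first listed start of all 5 genes with at least 100 reads (CXCR4, GNA13, P2RY8, S1PR2 and CXCR5) and of 0 of the 4 others (CCR6, GPR183, S1PR1 and CXCR3). GNA13 had 6 matches in a window with 81.3% GC, CXCR4 and S1PR2 had 3 each, CXCR5 had 2 and P2RY8 had 1. GC content did not separate the same sets: S1PR1 had 64.7%, against 66.7% in CXCR4, 57% in P2RY8 and 55.7% in CXCR5. Over all 15 listed starts of the 9 genes the GC box was found at 6, and at 0 of the 6 starts of the 4 genes with fewer reads. For comparison, GGGCGG was found in 44.9% of 34796 listed promoters, in 70.6% of those of 7962 genes with at least 100 reads and in 42.9% of those of 6558 genes with fewer. The letters TATAAA were found in CXCR4, as TTTATAAA that reads as a match on both strands, and 3 times in GPR183. They were found in 11.6% of all promoters. In CXCR4 they lie toward the start, and in GPR183 in the part of the window far upstream of it. These matches were looked up after the read counts were known and describe letters only.

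In both libraries the same 5 genes were read at depth. CXCR4 had 18906 reads in Ramos and 13479 in Ramos640, which was 64.2% and 65.2% of the reads of all 10 genes. GNA13 had 5450 and 3031 reads, P2RY8 3655 and 3200, S1PR2 959 and 652, and CXCR5 444 and 280. The other 5 genes had 22 reads or fewer in each library: GPR183 had 16 and 6, CCR7 6 and 22, CCR6 8 and 7, S1PR1 0 and 1, and CXCR3 0 and 0. The receptors read at depth were thus those for follicle and germinal centre position, with CXCR5 uncertain because its exons overlap those of another gene. Those for exit, inflamed tissue, the T-cell zone and the outer follicle, and CCR6, had under 1 CPM each. CXCR4 led in both libraries, while GNA13 and P2RY8 changed places in CPM, a measure without correction for GC content.

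**Figure D1:**
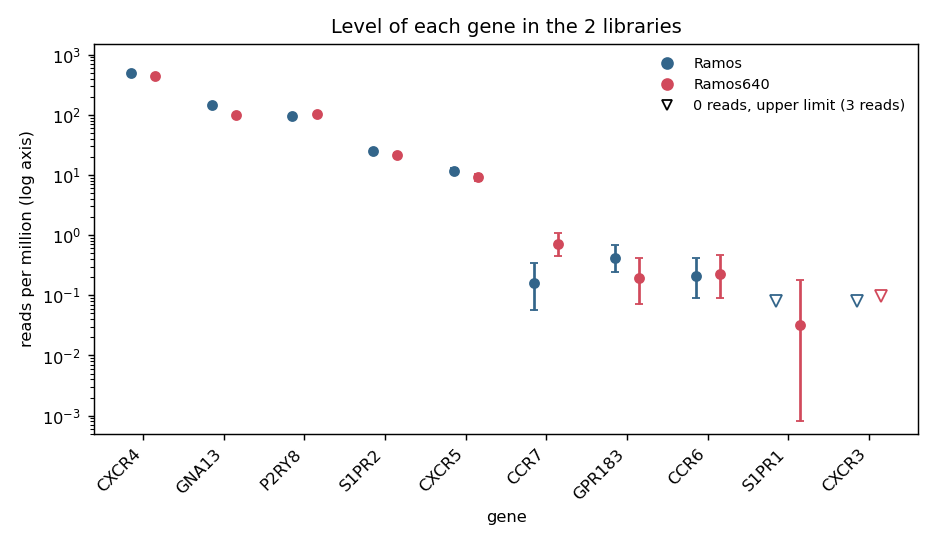
CPM (log axis) of each gene in the Ramos and Ramos640 libraries, with exact 95% Poisson intervals that cover counting error only, and open triangles for the limit that a count of 0 allows. CXCR4 lies at 497 and 437 CPM, the next 4 genes lie between 9.07 and 143 CPM, and the other 5 below 1 CPM.

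Per length of gene, as CPM per kilobase of exon (RPKM), CXCR4 stood at 171 RPKM in Ramos and 150 in Ramos640, rank 179 and 211 of 18967 protein-coding genes with a known length. GNA13 stood at 22.3 and 15.3 RPKM and P2RY8 at 21.2 and 22.9. S1PR2 followed at 6.92 and 5.80 RPKM and CXCR5 at 2.72 and 2.11. GPR183, CCR7 and CCR6 were at most at 0.284 RPKM in either library, and their counting intervals in CPM overlapped one another in Ramos. In Ramos640 the interval of CCR7, from 0.447 to 1.08 CPM, lay above that of GPR183, from 0.0713 to 0.423 CPM, and overlapped that of CCR6, which reached 0.467 CPM.

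The question of the comparison was which genes differ between the resistant line and its parent. A gene was called when the fold change, Ramos640 over Ramos on size-factor-scaled counts plus 1, passed the study's limit of 1.5 in either direction and its 95% counting interval (Clopper-Pearson) lay beyond no change. Of the 8 genes with at least 10 reads, 1 was called higher, against 11.4% of 18778 genes tested, and 0 were called lower, against 13.7% of them. That 1 gene of 8 is near the background share. Their median log2 fold change (log2FC) was -0.14, against -0.015 over all genes tested, with 3 genes above 0 and 5 below. In pooled bulk RNA, fewer cells with a transcript and less of it per cell cannot be told apart.

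The gene called was CCR7, the receptor for CCL19 and CCL21. Its counts were 6 in Ramos and 22 in Ramos640, that is 0.158 and 0.713 CPM. In log2FC this was 2.06 (interval from 0.91 to 3.85), or 4.17-fold with an interval from 1.88 to 14.4. Of all genes tested, 1.44% had a value as high or higher, while among 3130 genes with total reads within a factor of 2 of those of CCR7, 95.9% had a value at or below it. The call rests on 28 reads in all and is lost when at least 100 reads are required. CCR7 is also a gene of naive T cells, so the T-cell markers are given beside it: of 8, CD3E had 1 and 31 reads and CD247 25 and 58, while CD28 had 43 and 14, CD3G 5 and 1, and TRAC 1555 and 583. Their summed level was 42.8 CPM in Ramos and 22.3 CPM in Ramos640, of which TRAC gave 40.9 and 18.9 CPM. CD2, CD3D and CD5 were at 0 in both libraries, and the part of other cells in the CCR7 reads was not tested.

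GNA13 encodes the alpha subunit through which S1PR2 and P2RY8 reach RHOA. Among the 5 genes read at depth it had the lowest log2FC, a place that it lost to CXCR5 (-0.45), S1PR2 (-0.36) and CXCR4 (-0.17) with the GC trend removed. Its 5450 reads in Ramos and 3031 in Ramos640 gave 143 and 98.2 CPM. The log2FC was -0.47, with an interval from -0.53 to -0.40, so that GNA13 was 1.38-fold lower in Ramos640 by this count. That is inside the fold limits, and 22.0% of all genes tested had a value as low or lower. Among 2596 genes with total reads within a factor of 2 of those of GNA13, the share was 9.86%. The GNA13 transcript has a GC content of 38.3%, and genes of that GC content had a running median of -0.31 in this comparison. With that trend removed the value of GNA13 was -0.16.

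P2RY8, a receptor for a geranylgeranyl-glutathione ligand that inhibits migration, had 3655 reads in Ramos and 3200 in Ramos640, or 96.1 and 104 CPM. Its log2FC was 0.19, with an interval from 0.12 to 0.26, and it was 0.0092 with the GC trend removed. S1PR2, the inhibitory receptor for sphingosine 1-phosphate (S1P), had 959 and 652 reads, a log2FC of -0.18 and an interval from -0.32 to -0.031, and -0.36 with the GC trend removed. Both receptors therefore lay within the fold limits, on opposite sides of no change. S1PR1, the S1P receptor for exit, had 0 and 1 reads, and a difference was not detectable at this depth.

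**Figure D2:**
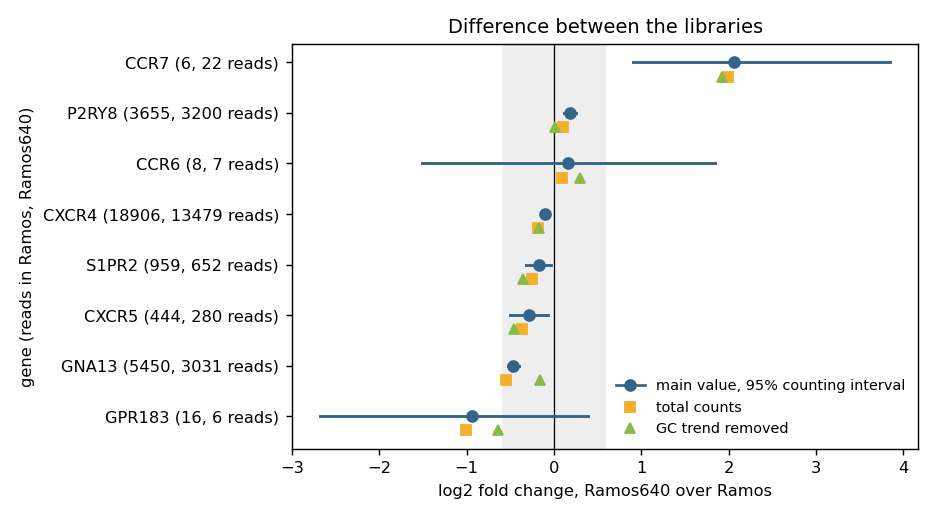
Log2 fold change of Ramos640 over Ramos for the 8 genes with at least 10 reads, with 95% counting intervals (lines), the value with total-count scaling (squares) and with the GC trend removed (triangles). The shaded band spans the fold limit of 1.5 in both directions. CCR7 at 2.06 has its whole interval outside the band, and GNA13 moves from -0.47 to -0.16 when the GC trend is removed.

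Within a library, the ratio of 2 genes does not depend on the scaling of the libraries, but it is not free of a trend over GC content. GNA13 held 59.9% of the joint reads of GNA13 and P2RY8 in Ramos (exact 95% interval 58.8% to 60.9%) and 48.6% in Ramos640 (47.4% to 49.9%). The reads of GNA13 thus exceeded those of P2RY8 in Ramos and not in Ramos640. Against S1PR2 the share of GNA13 was 85.0% (84.1% to 85.9%) and 82.3% (81.0% to 83.5%), and against GNA12, its closest relative among the alpha subunits, 64.6% (63.6% to 65.6%) and 58.4% (57.1% to 59.8%). In each pair the share was lower in Ramos640 and the intervals, which hold counting error only, did not overlap. With the GC trend removed, the log2FC of GNA13 (-0.16) was above those of S1PR2 (-0.36) and GNA12 (-0.22), which turns the direction of those 2 pairs. It stayed below that of P2RY8 (0.0092), but the 2 values lay nearer to each other than before removal (-0.47 and 0.19). The change of order between GNA13 and P2RY8 is one of uncorrected reads, and whether it holds with the GC trend removed was not tested. P2RY8 held 79.2% of its joint reads with S1PR2 in Ramos (78.0% to 80.4%) and 83.1% in Ramos640 (81.9% to 84.2%).

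Among the chemokine receptors, CXCR4 was close to level. At 497 CPM in Ramos and 437 in Ramos640, its log2FC was -0.11 with an interval from -0.14 to -0.075, a 1.08-fold lower value. CXCR5 had 11.7 and 9.07 CPM, a log2FC of -0.28 and an interval from -0.51 to -0.065, and -0.45 with the GC trend removed. CXCR4 outnumbered CXCR5 by 42.6 reads to 1 in Ramos and by 48.1 to 1 in Ramos640, and the shares of CXCR4 in their joint reads, 97.7% (97.5% to 97.9%) and 98.0% (97.7% to 98.2%), had overlapping intervals. CCR6, the CCL20 receptor, had a log2FC of 0.17 with an interval from -1.51 to 1.85, and no difference was detectable at this depth. CXCR3, the receptor of interferon-induced chemokines, had no reads in either library. GPR183 had 16 and 6 reads and a log2FC of -0.94, but its interval from -2.68 to 0.39 included no change.

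**Figure D3:**
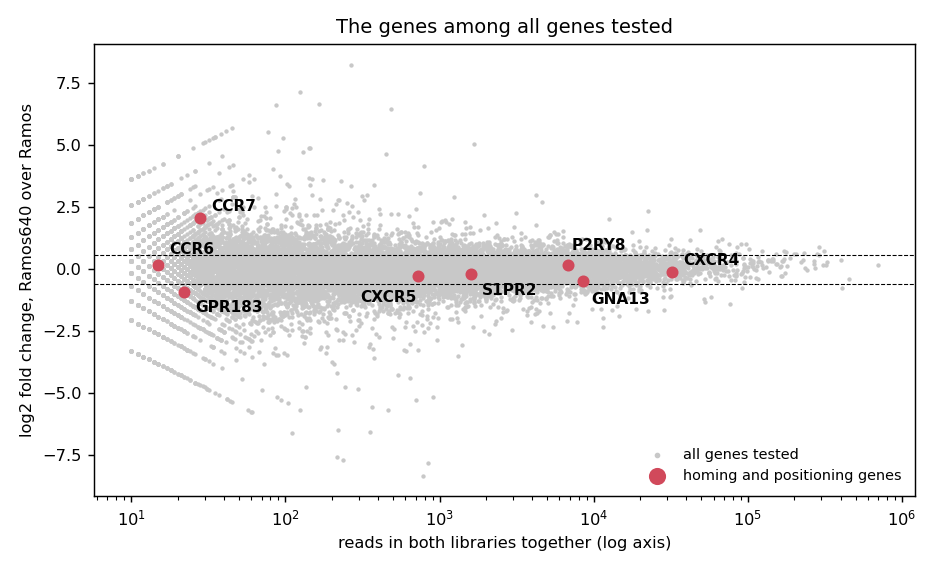
Log2 fold change of Ramos640 over Ramos against the reads in both libraries together (log axis) for 18778 genes tested (grey) and the 8 genes described (red), with dashed lines at the fold limits. CCR7 lies above the upper line among genes of few reads, and the 5 genes with at least 100 reads lie between the lines.

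On GRCh37, the build of the study, the genes lie on 8 chromosomes in the GENCODE v44lift37 annotation, and only CCR7 and GNA13 share an autosome, chromosome 17, far apart. GNA13 spans chromosome 17 from 63005407 to 63052858 on the minus strand and CCR7 from 38710021 to 38721724, also on the minus strand. The 20 nearest protein-coding genes of GNA13 with at least 100 reads had a median log2FC of -0.15, with 15 below 0 and 1 called lower, so GNA13 at -0.47 was lower than their median. With the GC trend removed GNA13 was at -0.16, and the neighbours were not given that correction. Those of CCR7 had a median of 0.0047, with 10 of 20 below 0, 3 called lower and 1 called higher. CXCR4, on chromosome 2 from 136871919 to 136876747, had neighbours with a median of -0.36, 17 of 20 below 0, and was itself nearer to 0 than that. P2RY8 lies in the pseudoautosomal region, chromosome X from 1581474 to 1656078, which chromosome Y repeats, so how its reads were assigned depends on counting that the paper's text does not describe. Its 15 neighbours had a median of 0.11, and the lowest, CD99 (named after its values were seen), had 454 and 6 reads.

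Some genes share exons with others, and the use of strand in counting is not stated. CXCR5 (chromosome 11, 118754601 to 118768496) has 91.1% of its exonic bases in exons of BCL9L on the opposite strand, which had 266 and 79 reads. Its value is therefore uncertain. CCR6 (chromosome 6, 167525295 to 167552629) shares 85.2% of its exonic bases with a readthrough gene model on the same strand. S1PR2 (chromosome 19, 10332109 to 10342007) shares 2.28% with DNMT1 on the same strand, which had 22130 and 16202 reads. GPR183 (chromosome 13, 99946793 to 99959653) lies within UBAC2 on the opposite strand without shared exonic bases. CXCR4, CCR7, CXCR3 (chromosome X, 70835766 to 70838361), S1PR1 (chromosome 1, 101702421 to 101709269) and GNA13 share none.

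The rest of the pathways was described with 9 gene lists, 150 genes in all, of which 107 had at least 10 reads. Of these, 8 were called higher (7.48%) and 15 lower (14.0%), against the 11.4% and 13.7% of all genes tested, and their median log2FC was -0.12.

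Ligands of the receptors were nearly unread. Of 20 genes for ligands and ligand handling, 12 had fewer than 10 reads, 10 of them none, among them CXCL12, CXCL13, CCL19, CCL20 and CCL21. Of the 8 tested, 0 were called higher and 2 lower. SGPP1, an intracellular S1P phosphatase, had 3029 and 638 reads, a log2FC of -1.86 with an interval from -1.99 to -1.74. DPP4, a protease that trims CXCL12, had 12 and 0 reads, and was at least 3.07-fold lower by its 12 reads against the floor of 3 reads, while the 95% interval, which also covers the counting error of the 12, ended at -1.09 in log2FC. ABCC1, a transporter that exports the P2RY8 ligand, had the most reads, 3182 and 2779 (0.19).

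Among 18 other chemokine and atypical receptors, 5 were tested, with 2 called higher and 1 lower. ACKR4, a scavenger of CCL19 and CCL21, had 1024 and 407 reads (log2FC -0.95, interval from -1.12 to -0.78), in a row under its older symbol CCRL1. The 2 called higher, CCRL2 with 18 and 61 reads (2.07) and CCR10 with 51 and 78 reads (0.98), were named after their values were seen. Of 12 other S1P and lysolipid receptors, 6 were tested, 0 called higher and 2 lower. With the GC trend removed, S1PR4, with 299 and 163 reads (-0.65 then), was called lower as well. P2RY10, a receptor for lysophosphatidylserine and related lipids, had 121 and 11 reads (-2.98, interval from -4.12 to -2.19), and LPAR5, a lysophosphatidic acid receptor, had 381 and 90 (-1.69, interval from -2.05 to -1.37).

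Below the receptors, the G proteins tested lay within the fold limits. Of 12 other alpha subunits 7 were tested and 0 were called in either direction, with a median of -0.087. GNAI2 and GNAI3, the inhibitory subunits to which chemokine receptors couple, had log2FC values of -0.38 and -0.44. With the GC trend removed these were -0.53 and -0.13. GNAS, the subunit that raises cyclic AMP, had the most reads (36029 and 27963, 0.015). In the GNA13-RHOA arm, 13 of 13 genes were tested, 0 were called higher and 1 lower. That gene, ARHGEF11, an exchange factor for RHOA, had 48 and 6 reads (-2.46). With the GC trend removed, ARHGAP25, with 2688 and 1421 reads (-0.60 then), was called lower as well. ARHGEF1, the exchange factor of this arm most used in lymphocytes, had 6310 and 5236 reads (0.11), RHOA 32657 and 23280 (-0.11), ROCK1 2827 and 1681 (-0.37) and ROCK2 852 and 483 (-0.44). ROCK1 and ROCK2 were at -0.078 and -0.20 with the GC trend removed. ARHGDIB, which holds small GTPases in the cytosol, had the most reads of the list (50887 and 32351, -0.27). Of 12 receptor kinases, arrestins and sorting genes, 11 were tested and 0 were called, and GRK2, under its older symbol ADRBK1, had the most reads (21469 and 14205, -0.21).

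RGS proteins end signalling by G proteins. Of 16 genes 11 were tested, with 2 called higher (RGS16 and RGS14) and 4 lower (RGS13, RGS12, RGS2 and RGS5). With the GC trend removed, the calls of RGS13 (-0.42), RGS2 (-0.44) and RGS14 (0.39) ended, and RGS1 (0.62) and RGS3 (-0.67) were called instead. RGS13, which limits chemokine responses of germinal centre B cells, had 12457 and 5559 reads (log2FC -0.78, interval from -0.83 to -0.74). RGS16 had 1567 and 2567 reads (1.09, interval from 1.00 to 1.18). The share of RGS16 in the joint reads of the 2 genes was 11.2% (10.7% to 11.7%) in Ramos and 31.6% (30.6% to 32.6%) in Ramos640. RGS12 had 249 and 76 reads (-1.32) and RGS2 1363 and 662 (-0.66), and RGS1, known to dampen CXCR4 and CXCR5 signalling, had 283 and 260 (0.26).

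**Figure D4:**
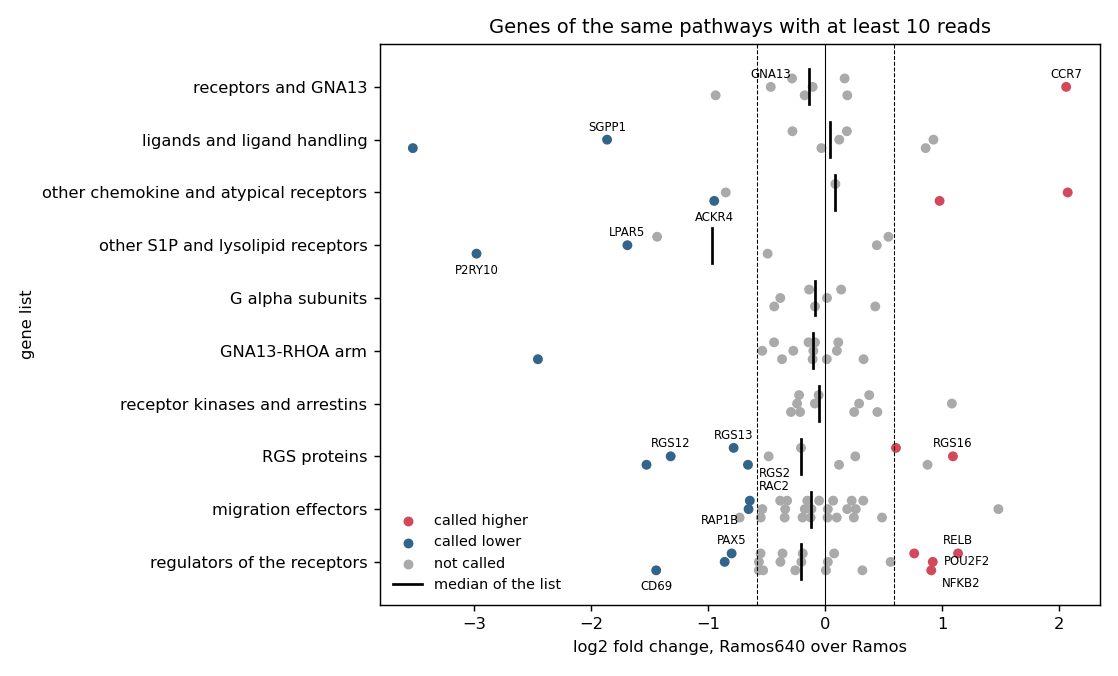
Log2 fold change of Ramos640 over Ramos of the genes with at least 10 reads, by gene list, with genes called higher in red, called lower in blue and not called in grey, list medians as black bars and dashed lines at the fold limits. The point at the far left is DPP4, with 0 reads in Ramos640. The RGS list has 2 of 11 genes called higher and 4 lower, against 11.4% and 13.7% of all genes tested. With the GC trend removed the calls of RGS13, RGS2 and RGS14 end, and RGS1 and RGS3 are called. The G alpha list has 0 of 7 called.

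All 26 genes of the migration machinery were tested, with 0 called higher and 2 lower. RAC2, the RAC of blood cells, had 5816 and 2857 reads (-0.64) and RAP1B, which acts in integrin activation, 3610 and 1760 (-0.66). With the GC trend removed, RAP1B (-0.34) was no longer called and RAP1A (0.78) was called higher. DOCK2, the exchange factor for RAC in lymphocyte migration, had 5147 and 4233 (0.099), and CFL1, which severs actin, had the most reads (53712 and 49457, 0.26). Of 22 regulators of the receptors, 21 were tested, 4 called higher and 3 lower. CD69, which binds S1PR1 and takes it off the surface, had 353 and 99 reads (-1.45, interval from -1.79 to -1.13), in cells where S1PR1 itself had 1 read at most. RELB had 2065 and 3486 reads (1.14), POU2F2 2921 and 4245 (0.92) and NFKB2 1821 and 2623 (0.91). FOXO1, a factor of the dark zone programme, and PAX5 were the other genes called lower (-0.86 and -0.80), and BATF, with 51 and 67 reads (0.76), was the fourth called higher, a call that ended with the GC trend removed (0.58). SPI1, with 1987 and 1030 reads (-0.57), was called lower with the GC trend removed (-0.74). FOXO1, BATF, SPI1 and the genes with fewer than 100 reads were named after their values were seen. KLF2, which drives S1PR1, had 4 and 0 reads, and TCF3 had the most reads of the list (17580 and 13559, 0.0064).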

How the data were processed

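RNA-seq was performed on Ramos and Ramos640 cells with 1 library per line (Ion Proton). The authors removed adaptors, aligned the reads to GRCh37 with MapSplice (v2.1.6) and deposited raw read counts per gene. The counting program, its annotation, its use of strand and its handling of reads with several matches are not given in the sources used here. Library totals were 38030090 and 30871826 reads. Size factors by the median of ratios (1.14 and 0.876) set the scale, and log2 fold changes were taken with a pseudocount of 1 over genes with at least 10 reads. With 1 library per line neither edgeR nor DESeq2 can estimate a dispersion, so no p-value is given. Clopper-Pearson and Poisson intervals (95%) cover counting error only. TMM factors came from edgeR (4.0.16), other steps from Python (3.11.15) with scipy (1.17.1). Positions, exon lengths and GC content came from GENCODE v44lift37, for 28805 rows matched by symbol or RefSeq synonym. Of the genes tested, 84.1% had a GC content. The GC trend was a running median across 501 genes, taken among protein-coding genes of 100 or more reads. Neighbours were the 10 nearest such genes on each side, fewer near a chromosome end. The steps were tested on simulated counts that held counting error only. Of changes planted in 200 well-read genes 100% were recovered, and 168 of 18580 unchanged genes were called. Recovery was not tested for genes of few reads such as CCR7.

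The 10 genes and the gene lists were chosen with earlier results of these data known. Besides the 10 genes, those named are, for each list, up to 4 called genes with the largest change and at least 100 reads in the higher library, and the gene with the most reads. Other genes of the lists are named for their known role, or for a call that changed with the GC trend removed, after their values were seen. The monocyte list summed to 0.526 and 0.615 CPM and the epithelial list to 1.13 and 0.518 CPM. Of the 9 B-cell markers, 1 was called higher, CD79B (log2FC 0.64), against 11.4% of all genes tested. MS4A1 (-1.96), MME (-0.92) and PAX5 (-0.80) were the 3 called lower, against 13.7%. With the GC trend removed CD79B was at 0.45, inside the fold limit.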

Additional observations from a re-analysis of the deposited data

How the results depend on the processing

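The 9 alternatives were TMM factors, total counts, pseudocounts of 0.1 and 10, minimums of 1 and 100 reads, removal of the GC trend, a fold limit of 2 and a limit that the whole interval must pass. The 8 genes with at least 10 reads kept their sign under each alternative that could be computed for them. CCR7 ranged from 1.20 to 2.23, GNA13 from -0.55 to -0.16 and P2RY8 from 0.0092 to 0.19 on the log2 scale. CCR7 was the 1 gene called higher under 8 alternatives, and with at least 100 reads there were 0. No other gene of the 10 was called under any of the 9. The median of the genes tested, -0.14 in the main setting, ranged from -0.22 (total counts) to -0.11 (minimum of 1 read). It moved by less than the standard deviation of the 8 values. That limit is wide, because CCR7 (2.06) and GPR183 (-0.94) lie far apart, so it could hardly have been passed.

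Of the pathway genes, 8 were called higher and 15 lower. Removal of the GC trend gave 8 and 16, which were not all the same genes. Total counts gave 23 lower, a fold of 2 gave 3 higher and 8 lower, and the whole-interval limit gave 5 higher. Over all genes, 2142 higher and 2581 lower calls became 1762 and 3099 (16.5% of the genes tested) with total counts, 1081 and 1390 with a fold of 2 and 1087 and 1387 with the whole-interval limit, and 1359 were higher with at least 100 reads. Of 465 other recomputed values (named genes and single lists), 401 stayed within the limits set for them, 64 moved and 0 called values changed sign. The cause of these changes was not tested, beyond fewer genes or stricter limits where the setting makes them. No paired analysis was possible because each line has 1 library. Genes under 10 reads, S1PR1 and CXCR3 among them, are limited by depth.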
